A study of Rattus norvegicus with 8 samples.

Results

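The Kcn genes encode the pore-forming and accessory subunits of potassium channels. They were taken as all genes whose symbol begins with Kcn among the array features that carry a single gene symbol, with the feature of highest mean level kept for each gene. This gave 83 of the 14506 genes measured. The 83 genes came from 85 features: Kcnip1 and Kcnip2 have 2 each, and 1 further feature shared by Kcnk16 and Kcnk5 was left out. By class there were 15 inwardly rectifying Kcnj genes, 14 voltage-gated Kcna to Kcnd genes, 11 leak channel Kcnk genes, 8 calcium-activated Kcnm and Kcnn genes (beta subunits included), 3 Kcnq genes, 12 accessory subunit genes (Kcnab, Kcne and Kcnip) and 20 others (Kcnf, Kcng, Kcnh, Kcns, Kcnt and Kcnv).

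The study treated myelinating cultures, grown from the spinal cords of Sprague-Dawley rat embryos at E15.5, with human fibroblast growth factor 9 (FGF9), a signalling protein that acts through FGF receptors. The series' title places the work in multiple sclerosis and names an effect of FGF9 on remyelination by way of astrocytes. Total RNA was hybridised to 8 one-colour Affymetrix arrays in 4 groups of 2: FGF9 at 100 ng/ml collected at 24 h, untreated control at 24 h, FGF9 at 100 ng/ml collected at 10 days, and untreated control at 10 days. The source field of the labels names neurosphere-derived astrocytes, whereas the titles name myelinating cultures. Markers of neurons and of mature oligodendrocytes were measured on these arrays at median levels of 10.48 over 13 genes and 9.88 over 11 genes on the log2 scale, where the median gene had 7.60.

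In spinal cord, potassium channels return axons to rest after an impulse and let glia take up the potassium that axons release. Kcnj channels pass potassium more easily into the cell than out of it and set the resting potential of astrocytes and oligodendrocytes. The voltage-gated families shape firing and repolarisation in neurons, Kcna channels sit beside the nodes of myelinated axons, Kcnk channels carry the background leak, and Kcnm and Kcnn channels open with intracellular calcium.

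The values are log2 expression values, and differences are FGF9 minus control. Each FGF9 array shares its replicate number and an array name prefix with the control array of the same time, and these arrays are called a pair. What the prefix stands for is not labelled, nor do the labels say that replicates came from separate cultures, so the p-values measure only the spread between these arrays, and their number limits the precision. The 10-day pair 2 stood apart: its 2 arrays correlated at 0.966 with each other and at 0.889 to 0.933 with the other 6, which correlated at 0.956 to 0.988 among themselves. Deviations from the group means were shared within pairs, with a correlation of 0.839 at 24 h and 0.862 at 10 days over the Kcn genes. Results are therefore given from limma without a block and, where the call changes, with the pair as a block. All 83 genes were tested, with no filter on low values, and 24 of them had a mean level above that of the median gene.

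At 10 days of FGF9 the potassium channel genes were mostly lower than in control cultures. Of the 83 genes, 57 had a lower mean in FGF9 cultures than in control and 26 a higher one, with a median difference of -0.20 on the log2 scale against 0.02 over all genes. The Kcn median was -0.11 in pair 1 and -0.30 in pair 2, and without the block it was 0.04 when the control array of pair 2 was left out. In both pairs 45 Kcn genes (54.2%) were lower and 16 (19.3%) higher, where 30% and 33.2% of all genes were. With the pair as a block, 21 passed an adjusted p of 0.05 (Benjamini-Hochberg over all genes): 17 fell and 4 rose, together 25.3% of the Kcn genes. The block called 6.43% of all genes, 3.31% lower and 3.12% higher. Without the block 0 Kcn genes passed in limma, where 0% of all genes did, and 5 Kcn genes had an unadjusted p under 0.05 (3 higher, 2 lower), 6.02% of them against 5.63% of all genes.

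Markers of neurons were lower on the same arrays. All 13 neuron markers measured were lower in both 10-day pairs and in both 24 h pairs, 10 of them called at 10 days with the block, with a median difference of -0.93 at 10 days. Their mean level at 10 days was 9.48 and 10.32 in the FGF9 cultures, against 10.36 and 11.23 in control cultures. The part of this shift in the channel genes was not tested, and in these bulk cultures fewer cells of a type and less RNA per cell cannot be told apart.

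**Figure D1:**
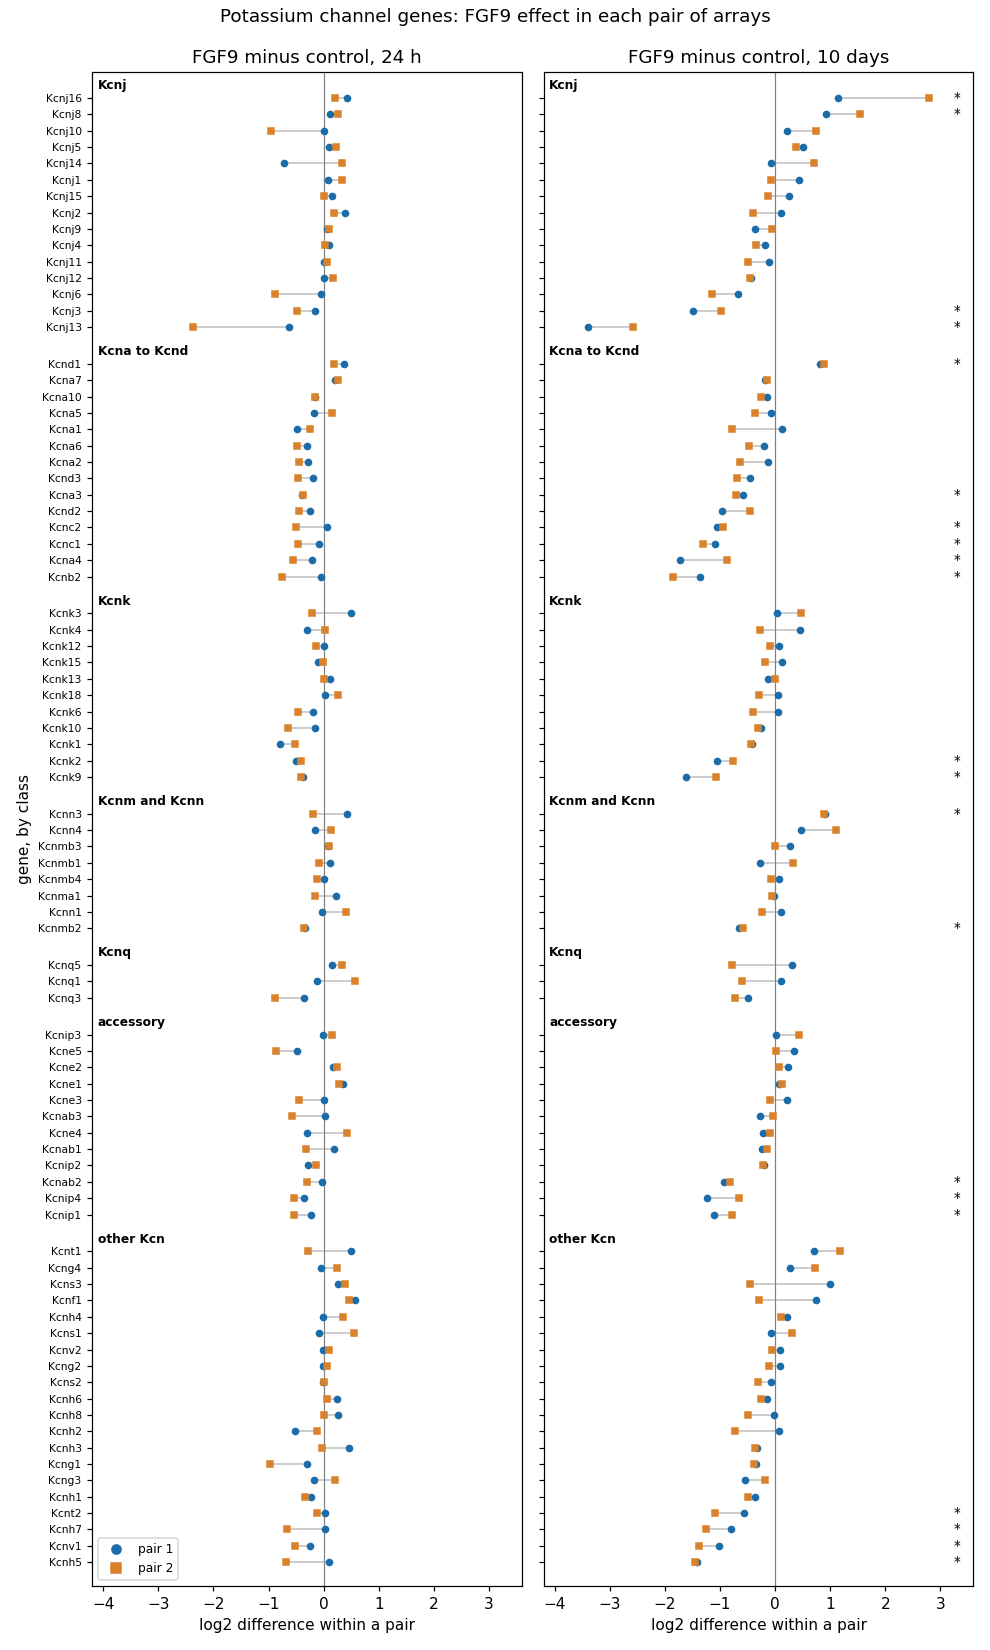
FGF9 minus control log2 difference within each pair of arrays (circles pair 1, squares pair 2) for the 83 Kcn genes by class, at 24 h on the left and 10 days on the right. Stars mark the 21 genes past an adjusted p of 0.05 at 10 days with the pair as a block, 17 of them left of 0.

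Among the inward rectifiers, FGF9 cultures at 10 days had less Kcnj13 and Kcnj3 and more Kcnj16 and Kcnj8. These were the 4 called genes of 15. The class as a whole had no common direction, with 7 genes higher, 8 lower and a median of -0.15. The promoters of Kcnj13, Kcnj16, Kcnj8 and Kcnj10 are shown because these genes carry the widest divergence within 1 class, from the largest fall to the largest rise. They are RefSeq sequences of build GRCr8, 250 bases before to 50 after the annotated start, 5′ to 3′ on the gene's strand, with capitals marking the motif matches described further on. Kcnj13 lies at chr9:95518937-95519236 on the minus strand, Kcnj16 at chr10:96517074-96517373 on the plus strand, Kcnj8 at chr4:177246499-177246798 on the minus strand and Kcnj10 at chr13:87334260-87334559 on the plus strand.
Kcnj13: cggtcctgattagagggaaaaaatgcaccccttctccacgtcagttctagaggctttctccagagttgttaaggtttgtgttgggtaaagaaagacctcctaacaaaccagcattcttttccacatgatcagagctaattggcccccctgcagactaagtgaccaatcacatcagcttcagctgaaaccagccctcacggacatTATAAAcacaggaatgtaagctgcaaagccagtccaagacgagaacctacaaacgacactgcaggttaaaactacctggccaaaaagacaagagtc
Kcnj16: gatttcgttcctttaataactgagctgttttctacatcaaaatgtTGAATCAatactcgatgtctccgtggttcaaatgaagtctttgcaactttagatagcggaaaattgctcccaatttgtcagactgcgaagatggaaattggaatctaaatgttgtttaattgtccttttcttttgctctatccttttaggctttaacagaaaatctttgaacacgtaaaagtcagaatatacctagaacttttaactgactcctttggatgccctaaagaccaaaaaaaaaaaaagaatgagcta
Kcnj8: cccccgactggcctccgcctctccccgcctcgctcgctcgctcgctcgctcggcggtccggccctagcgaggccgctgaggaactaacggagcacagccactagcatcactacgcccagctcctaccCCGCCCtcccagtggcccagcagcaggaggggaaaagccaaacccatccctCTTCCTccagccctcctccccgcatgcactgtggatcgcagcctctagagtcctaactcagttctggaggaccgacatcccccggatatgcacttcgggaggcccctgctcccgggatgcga
Kcnj10: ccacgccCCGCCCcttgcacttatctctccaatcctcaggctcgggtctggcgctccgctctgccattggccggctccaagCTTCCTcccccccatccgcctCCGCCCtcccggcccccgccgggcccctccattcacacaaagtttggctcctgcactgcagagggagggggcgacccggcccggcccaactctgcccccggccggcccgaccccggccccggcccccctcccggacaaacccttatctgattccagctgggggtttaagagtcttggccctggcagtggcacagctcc

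Kcnj13 encodes a weakly rectifying channel of transporting epithelia such as the choroid plexus. At 10 days it measured 6.88 and 4.93 in FGF9 cultures, against 10.28 and 7.52 in control cultures. Both FGF9 arrays lay below both control arrays, although the 2 controls also lay far apart. The difference was -3.00 ± 1.57 (SE, n = 2 per group) without the block, which did not pass, and was the lowest of all 14506 genes at this time. With the block its SE was 0.41 and its adjusted p 0.022, a 7.98-fold lower mean. At 24 h it measured 5.67 and 7.75 in FGF9 cultures, against 6.29 and 10.12 in control cultures. The groups overlapped there, but FGF9 was the lower array of each pair, with pair differences of -0.63 and -2.37. Their mean of -1.50 did not pass (SE 0.41, adjusted p 0.262 with the block). Beside it, 8 of 9 other markers of choroid plexus and ependyma measured were lower at 10 days, with a median of -1.07, and 3 were called with the block (Folr1, Spag6l and Cfap300). The mean level of these 9 markers was 6.92 and 6.84 in FGF9 cultures, against 7.65 and 7.77 in control cultures, and their part in the Kcnj13 result was not tested.

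Kcnj16 encodes a subunit that joins the astrocyte channel protein of Kcnj10. At 10 days it measured 9.84 and 8.97 in FGF9 cultures, against 8.71 and 6.17 in control cultures. Both FGF9 arrays were above both controls, and the control of pair 2 was the lowest of the 8 arrays. The difference was 1.96 ± 0.81 without the block. With the block the SE was 0.37 and the adjusted p 0.0388, a 3.90-fold higher mean, with pairs at 1.13 and 2.79. Kcnj10 itself, the main inward rectifier of astrocytes and oligodendrocytes, measured 8.76 and 11.53 in FGF9 cultures at 10 days, against 8.56 and 10.79 in control cultures. These values followed the pair far more than the treatment: the difference of 0.47 ± 1.10 did not pass (adjusted p 0.341 with the block). At 24 h Kcnj10 measured 10.43 and 9.07 in FGF9 cultures, against 10.42 and 10.03 in control cultures, with pair differences of 0.01 and -0.96. The 11 astrocyte markers apart from Kcnj10 had a median difference of -0.58 at 24 h and -0.06 at 10 days, with none called. Their mean level at 10 days was 11.04 and 11.38 in FGF9 cultures, against 11.29 and 11.23 in control cultures.

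Kcnj8 encodes the pore of a channel that ATP closes, known from pericytes and smooth muscle. At 10 days it measured 7.02 and 7.15 in FGF9 cultures, against 6.10 and 5.61 in control cultures. The FGF9 arrays lay above every other array of the gene, those of 24 h included. The difference of 1.23 ± 0.28 passed with the block (adjusted p 0.0254) and not without it (0.536). Abcc9, the sulphonylurea receptor that pairs with this pore, differed by -0.19 ± 0.21 and was not called. The 11 fibroblast and pericyte markers, Abcc9 among them, had a median of -0.16, with 5 higher and 6 lower. With the block 2 were called higher, Rgs5 at 2.09 and Cspg4 at 1.70, and none lower. The mean level of the 11 was 8.95 and 6.99 in FGF9 cultures, against 8.91 and 6.70 in control cultures. Cspg4 is also a marker of oligodendrocyte precursors, a list of 8 with a median of 0.99 and 3 called higher. The part of these cells in the Kcnj8 result was not tested.

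Kcnj3 and Kcnj6 encode subunits of the G protein-gated channels of neurons. Kcnj3 measured 8.33 and 9.68 in FGF9 cultures at 10 days, against 9.83 and 10.67 in control cultures, with both FGF9 arrays below both controls. Its difference of -1.24 passed with the block (SE 0.18, adjusted p 0.0237) and not without it (SE 0.66). Kcnj6 had the same sign in both pairs, at -0.68 and -1.15, but its mean of -0.91 did not pass (adjusted p 0.0788 with the block). The other 9 Kcnj genes lay between -0.44 and 0.44 at 10 days and none passed.

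**Figure D2:**
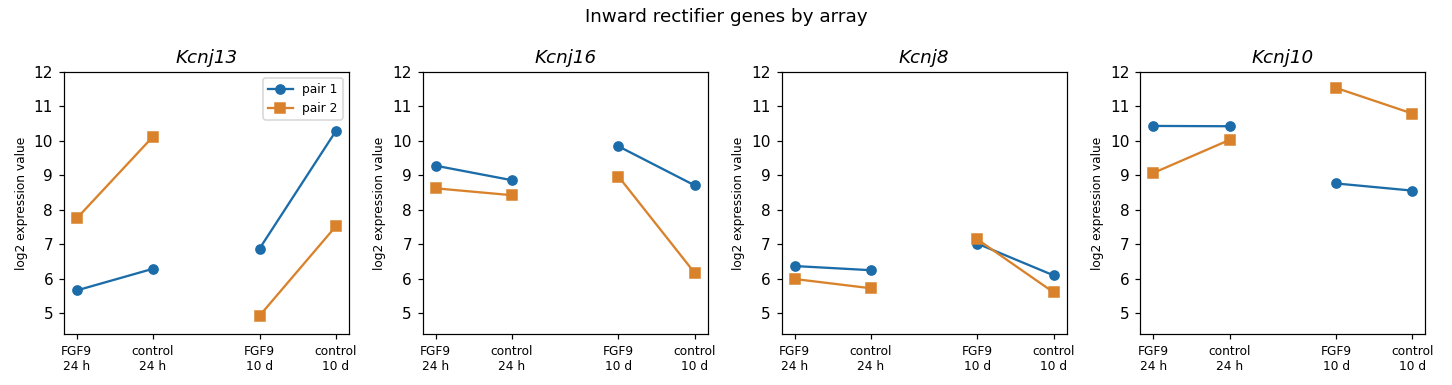
Log2 expression value of Kcnj13, Kcnj16, Kcnj8 and Kcnj10 on each array, FGF9 left of control at 24 h and at 10 days, with lines joining the arrays of a pair (circles pair 1, squares pair 2). The 10-day lines run from the lower FGF9 to the higher control value for Kcnj13 and the other way for Kcnj16 and Kcnj8, while for Kcnj10 the pairs lie further apart than the treatments.

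The voltage-gated Kcna to Kcnd genes had the most uniform direction of the larger classes. At 10 days 13 of 14 were lower in FGF9 cultures and 1, Kcnd1, was higher, with a median of -0.48. With the block 5 fell and 1 rose. Kcnb2, a delayed rectifier subunit of neurons, measured 5.90 and 6.89 in FGF9 cultures at 10 days, against 7.27 and 8.74 in control cultures. The groups did not overlap. At 24 h FGF9 cultures had 6.45 and 6.54 and control cultures 6.49 and 7.30. The 24 h pair 2 and the 10-day pair 1 share a prefix. Between these, control had 7.30 at 24 h and 7.27 at 10 days, and FGF9 had 6.54 and 5.90. Its 10-day difference was -1.61 ± 0.57, with an adjusted p of 0.813 without the block and 0.022 with it, a 3.05-fold lower mean.

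Kcnc1 and Kcnc2 encode the rapidly gating channels of fast-spiking neurons. Kcnc1 measured 7.94 and 9.05 in FGF9 cultures at 10 days, against 9.03 and 10.36 in control cultures. Pair 2 was the higher in each group, so the groups overlapped slightly, but the pair differences of -1.10 and -1.31 were close. The mean of -1.20 had an SE of 0.62 unblocked and 0.16 in the blocked fit, where the adjusted p was 0.0209. Kcnc2 fell by 1.01 with the block (pairs -1.06 and -0.95, adjusted p 0.0329). Kcna4, a subunit of transient axonal currents, measured 6.09 and 6.73 in FGF9 cultures, against 7.83 and 7.61 in control cultures. Its groups did not overlap, and the difference of -1.30 ± 0.41 passed with the block (adjusted p 0.0348) and not without it (0.724).

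Kcna3, a subunit found in neurons and immune cells, was called with the block at -0.65, the smallest of the falls in this class. Kcna1, a subunit of the channels beside the node, measured 9.49 and 9.55 in FGF9 cultures at 10 days, against 9.37 and 10.33 in control cultures, and its pairs had opposite signs. Kcnd2, which carries the somatodendritic transient current, differed by -0.97 and -0.47 in the pairs and did not pass (adjusted p 0.0641 with the block). It was the first gene outside the threshold, and Kcnmb2 at 0.04997 the last inside it. Kcnd1, of the same subfamily, measured 6.74 and 7.88 in FGF9 cultures, against 5.93 and 7.00 in control cultures. Pair 2 was the higher in both groups, and the rise of 0.85 was alike in the pairs, at 0.81 and 0.88 (SE 0.13, adjusted p 0.0282 with the block).

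Of the 11 leak channel Kcnk genes 2 fell with the block at 10 days. The mean difference was below 0 in 9, with a median of -0.13, but only 5 were lower in both pairs, 5 had pairs of opposite sign and 1 was higher in both. The class median was 0.03 in pair 1 and -0.30 in pair 2. Kcnk9, an acid-sensitive leak channel of neurons, measured 7.90 and 9.42 in FGF9 cultures, against 9.51 and 10.49 in control cultures. Both FGF9 arrays were below both controls, the nearer by a small margin. The difference of -1.34 (SE 0.57 without the block, 0.17 with it) had an adjusted p of 0.0199 with the block, the lowest of the 83 genes. Kcnk2, which responds to stretch and lipids, fell by 0.92 with pairs of -1.06 and -0.77 (adjusted p 0.0275 with the block). Unlike Kcnk9 it was lower in pair 2 than in pair 1 in both groups at 10 days. Kcnk10, the class member of highest mean with Kcnk9, differed by -0.28 ± 0.23 and did not pass.

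Calcium-activated channel genes divided. Of the 8 Kcnm and Kcnn genes 4 were higher and 4 lower at 10 days, and the median was 0.02. Kcnn3, a small-conductance channel, measured 9.20 and 9.87 in FGF9 cultures, against 8.30 and 8.99 in control cultures, so both FGF9 arrays lay above both controls. It rose by 0.89, with pairs of 0.90 and 0.89 (SE 0.18, adjusted p 0.0463 with the block). Kcnn4, the intermediate-conductance channel of immune and proliferating cells, was also higher on both arrays, with 6.04 and 6.40 in FGF9 cultures against 5.56 and 5.29 in control cultures, but its difference of 0.79 did not pass (0.0689 with the block). Kcnma1, the pore of the large-conductance channel, differed by -0.04 ± 0.38, a sign that turned to 0.0054 when each array's median was subtracted. Of its beta subunits, Kcnmb2 fell by 0.62 with the block and Kcnmb3 differed by 0.14, which did not pass. The gamma subunit Lrrc55 of the same channel measured 6.46 and 6.81 in FGF9 cultures, against 9.66 and 8.72 in control cultures. Its difference of -2.56 (SE 0.32, adjusted p 0.0196 with the block) was the largest among the partner genes, and the other 3 gamma subunits were not called.

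None of the 3 Kcnq genes, whose channels damp repetitive firing, was called. Kcnq3 measured 7.89 and 8.36 in FGF9 cultures at 10 days, against 8.39 and 9.09 in control cultures. The groups nearly met, and its difference was -0.62 ± 0.36 at both times (adjusted p 0.268 at 24 h and 0.097 at 10 days with the block). Kcnq5 had pairs of opposite sign at 10 days, 0.31 and -0.79.

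Accessory subunits set the gating and surface delivery of the pore proteins, and of these 12 genes 3 fell with the block and none rose. Kcnip1, a calcium-binding subunit of Kcnd channels, measured 7.76 and 10.17 in FGF9 cultures at 10 days, against 8.88 and 10.95 in control cultures. The arrays were split by pair more than by treatment, and the difference of -0.95 had an SE of 1.18 unblocked and 0.16 in the blocked fit, where the adjusted p was 0.030. Its second feature differed by -0.30, and with the mean of its features Kcnip1 was not called with the block. Kcnip4, of the same family, fell by 0.95 with pairs of -1.23 and -0.66. Kcnab2, a beta subunit of Kcna channels, measured 8.45 and 9.35 in FGF9 cultures, against 9.37 and 10.18 in control cultures, a difference of -0.87 (adjusted p 0.0291 with the block). The FGF9 arrays were below both controls, the nearer by a small margin. Kcnab1, its relative, differed by -0.19 ± 0.57 and did not pass.

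Among the other 20 genes 4 fell and none rose with the block. Kcnh5, a voltage-gated channel of neurons, measured 6.87 and 8.91 in FGF9 cultures at 10 days, against 8.29 and 10.36 in control cultures. Pair 2 was about as far above pair 1 in both groups, and the pair differences were -1.42 and -1.45. Its SE was 1.00 unblocked and 0.21 in the blocked fit, where the adjusted p was 0.0237. Kcnh7 fell by 1.03, the modifier subunit Kcnv1 by 1.20 and the sodium-activated Kcnt2 by 0.83, with adjusted p-values of 0.0488, 0.021 and 0.0477 with the block. Kcnt1, the relative of Kcnt2, went the other way at 0.70 and 1.18 in the pairs and did not pass (0.0658 with the block).

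**Figure D3:**
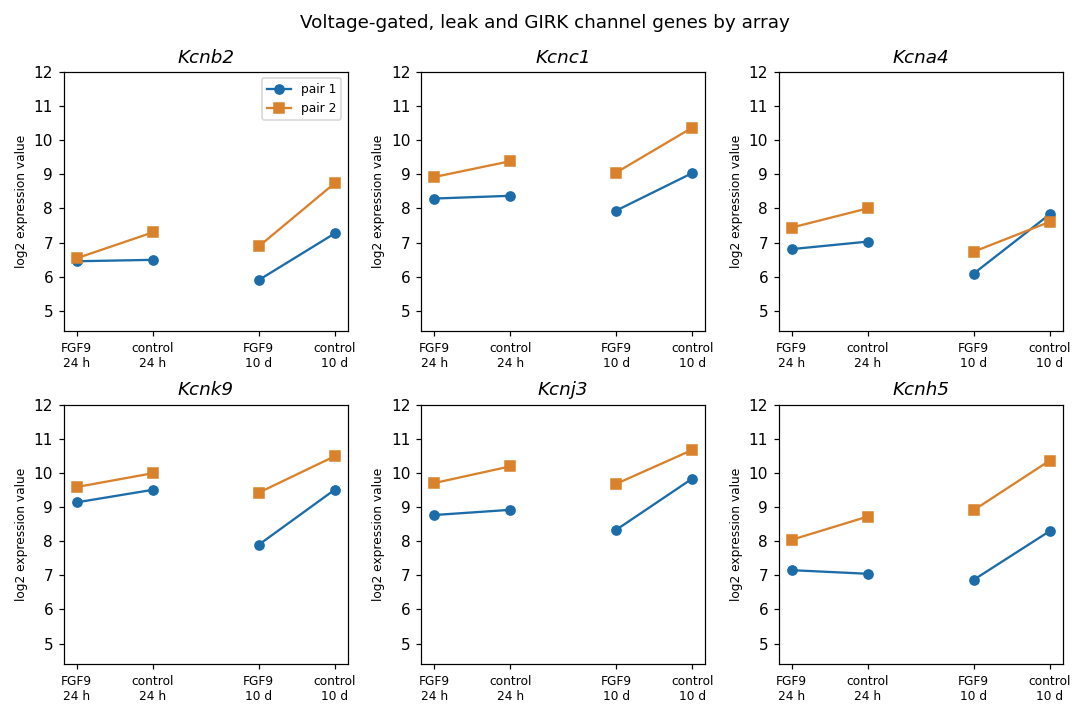
Log2 expression value of Kcnb2, Kcnc1, Kcna4, Kcnk9, Kcnj3 and Kcnh5 on each array, FGF9 left of control at 24 h and at 10 days, with lines joining the arrays of a pair. At 10 days FGF9 is the lower end of all 12 lines, while pair 2 lies above pair 1 on all arrays but the 10-day controls of Kcna4.

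The 10-day differences were also taken with fewer arrays. Leaving out a pair, with the block, leaves 1 array in a group, so for single genes only the differences of these fits are given. Leaving out a 24 h pair cannot change the 10-day differences, which come from the 10-day pairs alone. Without a 10-day pair, the difference is that of the other pair. For Kcnj13 it was -3.40 without pair 2 and -2.59 without pair 1, and for Kcnj16 1.13 and 2.79. Without the 10-day pair 2 that stood apart, Kcnb2 was at -1.36, Kcnj8 at 0.92, Kcnh5 at -1.42 and Kcnn3 at 0.90. With the prefix as a random block Kcnj8 alone was called, 1 of 83 Kcn genes, where 151 of all 14506 genes were.

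At 24 h of FGF9 no Kcn gene passed with or without the block, and 0% of all genes did in either fit. With the block 10 Kcn genes had an unadjusted p under 0.05, all of them lower in FGF9 cultures. That is 12% of the Kcn genes, where 12.4% of all genes had such a p. Without the block none of the Kcn genes and 1.93% of all genes had one. In both pairs 30 Kcn genes (36.1%) were lower and 20 (24.1%) higher, where 32.9% and 31.8% of all genes were. The Kcn median was -0.04. The Kcna to Kcnd class had a median of -0.33 with 12 of 14 genes lower. Kcnk1, a weakly conducting leak channel found in glia, had the lowest adjusted p, 0.197 with the block. It measured 8.01 and 8.32 in FGF9 cultures, against 8.80 and 8.84 in control cultures, without overlap. Other differences of one sign in both pairs were -0.68 for the accessory gene Kcne5, -0.64 for Kcng1 and 0.51 for Kcnf1, Kcng1 and Kcnf1 encoding silent modifier subunits. In Kcnk2 the 24 h difference was -0.46 and in Kcnip4 it was -0.44.

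Over the 83 genes the 24 h and 10-day differences correlated at 0.67 (Pearson) and 0.63 (Spearman), given as a description, since genes are not independent and the 24 h pair 2 and 10-day pair 1 share a prefix. The sign was the same at both times in 59 genes and opposite in 24. All 21 genes called at 10 days had the same sign at 24 h. Of the 17 that fell 13 were already lower in both 24 h pairs, and of the 4 that rose 3 were higher in both. The same counts were not taken over all genes, so whether they are particular to the channel genes was not tested. The change of the FGF9 effect between the times was called for none of the Kcn genes, without the block (0% of all genes called) or with it (0.0483%). At an unadjusted p under 0.05 there was 1 Kcn gene without the block, 1.2% against 1.9% of all genes, and there were 21 with it, 25.3% against 12.9% of all genes. The 5 largest such changes were 1.65 for Kcnj16, -1.50 for Kcnj13, -1.21 for Kcnb2, -1.15 for Kcnh5 and 1.03 for Kcnj8, with adjusted p-values of 0.249 to 0.370 with the block.

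**Figure D4:**
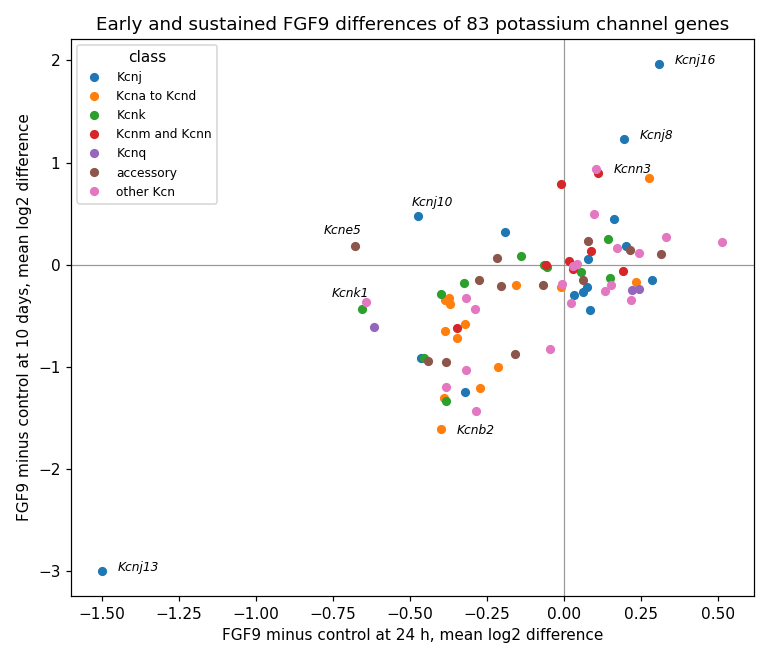
FGF9 minus control mean log2 difference at 24 h (x axis) and at 10 days (y axis) for each of the 83 Kcn genes, coloured by class. Kcnj13 is at the lower left, Kcnj16 and Kcnj8 at the top, and 59 genes have the same sign at both times.

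Between the times, control cultures gave no called Kcn gene, and the direction of the differences depended on the block. A pair lies within 1 time, so the blocked comparison used the array name prefix, and only 1 prefix, that of the 24 h pair 2 and the 10-day pair 1, spans both times. At 10 days against 24 h, 62 of the 83 Kcn genes were higher without the block, with a median of 0.15, and none passed (0% of all genes called). At an unadjusted p under 0.05 there were 0 Kcn genes and 2.86% of all genes. With the block 38 were higher and 45 lower, with a median of -0.07, and none passed (0.00689% of all genes called). At an unadjusted p under 0.05 there were then 17 Kcn genes, 1 higher and 16 lower, which is 20.5% of them against 13.7% of all genes. The unblocked difference of Kcnb2 was 1.11 and the blocked one 0.27, and for Kcnj16 they were -1.20 and -0.08, none of which passed.

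Genes of proteins that work with these channels were read on the same arrays. All 5 partners of voltage-gated and ATP-sensitive channels were lower at 10 days, and Dpp10 (-0.93) and Dpp6 (-0.77), which attach to Kcnd channels, fell with the block. Of 16 genes of the node and juxtaparanode scaffold, which anchors Kcna channels along the axon, 13 were lower and 6 fell with the block: Lgi1 (-1.27), Dlg2 (-1.15), Ank3 (-0.996), Cntnap1 (-0.94), Cntn2 (-0.92) and Epb41l3 (-0.81). Of 3 potassium-chloride cotransporter genes 2 were higher and 1 lower at 10 days, with a median of 0.14. The lower one was Slc12a5, the chloride extruder of neurons, and it alone was called. It measured 7.82 and 9.34 in FGF9 cultures, against 9.69 and 10.36 in control cultures. The difference was -1.45 (adjusted p 0.0275 with the block). The 7 partners of glial potassium uptake had a median of 0.48, with 5 higher and 2 lower. The sodium-bicarbonate cotransporter Slc4a4 was higher by 0.91 (adjusted p 0.0381 with the block). Aqp4 (-0.44) and Gjb6 (-0.87) were the lower ones, and neither was called. No gene of the 6 sodium-potassium pump or 3 HCN channel genes was called, where Atp1b2 at 0.61 and Hcn3 at -0.47 had the lowest p of each list.

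Position and promoter letters were set beside these differences. In the RefSeq annotation 16 of the Kcn genes form 9 pairs of direct neighbours. In the Kcna pairs both genes were lower at 10 days. These were Kcna1 (-0.33) with Kcna6 (-0.35) and Kcna5 (-0.22), and Kcna2 (-0.39) with Kcna10 (-0.20) and Kcna3 (-0.65). Kcnj5 (0.44) and Kcnj1 (0.19) were both higher. The remaining pairs had opposite signs. They were Kcnj16 (1.96) and Kcnj2 (-0.15), Kcnip1 (-0.95) and Kcnmb1 (0.03), Kcnj10 (0.47) and Kcnj9 (-0.22), and Kcnj6 (-0.91) and Kcnj15 (0.06). A promoter was at hand for 58 of the 83 genes. Their median GC content was 60.5%, against 52.3% over 27457 promoters, and it was 57% for the 3 genes called higher, 61.3% for the 12 called lower and 60.7% for the 43 not called. Kcnj16 had the lowest GC content of the 58, at 34%, and Kcnj13 had 46.3%, while Kcnj8 had 67% and Kcnj10 70.3%.

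Sequence motifs were searched on both strands, with no overlapping matches in the 4 promoters shown. The AP-1 motif TGANTCA stood in 3 of the 58 (5.17%, against 7.33% of all promoters), among them Kcnj16 at base 46. The ETS motif AGGAAG stood in 41.4%, against 34.3%, among them Kcnj8 at base 179 and Kcnj10 at base 82. The GC box GGGCGG stood in 50%, against 34.9%, among them Kcnj8 at base 128 and Kcnj10 at bases 8 and 103. The TATA box TATAAA stood in 2 of the 58 (3.45%, against 14.3%), Kcnj13 at base 205 being one. The cAMP response element TGACGTCA stood in 0% against 1.91%, and the STAT motif TTCNNNGAA in 10.3% against 8.68%. These are matches of letters only, and the sites were not tested.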

How the data were processed

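Expression was measured on 8 arrays, 2 per group. The authors deposited 1 value per feature and array, read here as log2 from the values (array medians 6.62 to 6.73). Per the submitters' processing notes Partek 6.5 and GCRMA were used, while other steps, their order and the genome build were not stated. No further normalization was applied. Groups and replicate numbers came from the sample titles.

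For each gene with single-symbol features the feature of highest mean was kept. The limma package (3.58.1, in R 4.3.3) was used to fit 1 mean per group over the 8 arrays, which leaves 4 residual degrees of freedom. P-values were adjusted by Benjamini-Hochberg over 14506 genes, with a threshold of 0.05. The alternative with the pair as a block has 2 residual degrees of freedom and lowers the median residual SD to 0.145, against 0.300 without it. The pairing rests on the array name prefix and on shared deviations, whose correlation over all genes was 0.757 at 24 h and 0.819 at 10 days.

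The Kcn genes, gene lists and tests were chosen with earlier results of these data known. Named were Kcnj10, Kcnj13, all called Kcn genes, the 2 of highest mean and the 2 of largest same-sign difference at each time in each class, and the 5 largest changes between times. Of partner lists, called genes or the one of lowest p were named. Genes given with neighbours, of a limit or in contrast to these were added after their values were seen. Other normalizations, a filter on low values, the mean of features and leaving out arrays were tried. The scripts were checked on simulated data.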

Additional observations from a re-analysis of the deposited data

How the results depend on the processing

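The calls at 10 days rest on the pairing: the replicate block called 21 Kcn genes where the fit without it called 0, and the random prefix block called 1. Of all 14506 genes the replicate block called 933, the fit without it 0 and the random prefix block 151. With the block, leaving out a pair gave 11 to 17 calls at 10 days (12 without the 10-day pair 2), 0 to 2 for the change of the FGF9 effect, the 2 without the 10-day pair 1. The blocked difference between times in control cultures cannot be estimated without the 24 h pair 2 or the 10-day pair 1, which alone share a prefix across times, so it has no value there. The counts without a pair come from fits with 1 array in each group of that time, so no gene's call is read from them. Further fits with the block were added after seeing the data. After quantile normalization 19 Kcn genes were called at 10 days, and 989 of all 14506. Subtracting array medians gave 17 Kcn genes and 962 of all, and the mean of features 20 and 925. Under the filter on low values 14 of the 24 Kcn genes tested were called, and 1037 of all 7253. The filter also moved the Kcn median to -0.37 at 24 h and -0.51 at 10 days, and with the block to -0.38 for time in control cultures. The causes were not tested.

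Leaving out single arrays without the block called 0 Kcn genes, and moved the Kcn median between -0.17 and 0.051 at 24 h, -0.44 and 0.039 at 10 days, and -0.40 and 0.12 for the change between times. These fits keep an unpaired array, and the sign of some genes turned. At 24 h the ranges were -3.41 to 0.42 for Kcnj13, -1.32 to 0.44 for Kcnip4, -1.17 to 0.26 for Kcnk2, -0.84 to 0.15 for Kcnmb2, -1.16 to 0.21 for Kcnj10, -0.46 to 0.94 for Kcnq5, -0.88 to 0.10 for Kcna4, -0.80 to 0.0030 for Kcnb2 and -1.03 to 0.10 for Kcnj6. At 10 days they were -1.50 to 0.21 for Kcna3, -0.51 to 0.12 for Kcnab1, -2.00 to 0.56 for Kcnd2, -2.16 to 0.25 for Kcnip1, -0.43 to 0.34 for Kcnma1, -1.19 to 0.70 for Kcnq5, -0.91 to 1.86 for Kcnj10 and -0.81 to 0.15 for Kcna1. The change of the Kcnj13 effect ranged from -3.41 to 0.42. With the block and without a pair, Kcnj10 was at 0.0093 at 24 h, and Kcna1 at 0.12 and Kcnq5 at 0.31 at 10 days. Subtracting array medians put Kcnma1 at 0.0054 at 10 days. A trended prior and a fit on the arrays of 1 time were run without the block only. No Kcn gene was called there with or without these settings, so they do not test the calls made with the block.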
